A study of Homo sapiens with 4 samples.

Results

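The NDUF genes encode most of respiratory complex I and several of the proteins that assemble it. They were taken as the rows of the deposited table whose Ensembl identifier carries a protein-coding GENCODE symbol that begins with NDUF, which gave 47 of the 17656 genes in the table, and all 47 passed the filter on low values. Of these, 37 encode subunits of complex I, 8 encode NDUFAF assembly factors, and 2 (NDUFA4 and NDUFA4L2) carry the name for historical reasons. A further NDUF symbol of the annotation, the readthrough gene NDUFC2-KCTD14, was not analysed here. The rule takes the symbols by name.

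Complex I is the entry point of the mitochondrial respiratory chain. It takes electrons from NADH, passes them along a chain of iron-sulfur clusters in its peripheral arm to ubiquinone, and pumps protons across the inner membrane with its membrane arm. Its catalytic core is built from both genomes: the nucleus encodes the core subunits of the peripheral arm, and mitochondrial DNA encodes those of the membrane arm. Around the core sit accessory subunits, all of nuclear origin, and dedicated assembly factors join the modules and then leave.

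The 4 libraries came from U937, an established human myeloid leukemia cell line with monocytic features. The labels put 2 libraries in a group named NC, with no treatment, and 2 in a group named sh-ZNF217, with knockdown of ZNF217, a zinc finger transcription regulator. The methods of the study describe hairpins delivered by lentivirus in a puromycin backbone and also Cas9 knockout lines, and its text speaks of knockout for the sequenced cells, so which reagent these libraries carry, and whether the NC cells received a control vector, was not settled by the labels. The values were taken as TPM, a gene's share of a library after division by transcript length and scaling to a common total.

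The targeted transcript was only slightly lower in both sh-ZNF217-labelled libraries and did not pass the test. ZNF217 stood at 36.1 and 36.7 TPM in NC and at 35.8 and 34.97 TPM in the sh-ZNF217-labelled libraries, a log2 fold change of -0.04 (SE 0.07, 95% interval -0.22 to 0.14, limma adjusted p = 0.74). The paper reports that its hairpins reduced ZNF217 mRNA and protein in AML cell lines. A fall of the mRNA was not detected in these libraries, so every difference below is one between libraries as labelled. The columns summed to between 998932 and 999282 TPM, and the read depth is unknown. Of the 13 myeloid markers listed for the check of the cell type, all 13 were in the table. The list split, with 7 of the 12 tested markers higher and 2 lower at an adjusted p below 0.05 in limma. LYZ, the lysozyme gene, was at 3270 and 3256 TPM in NC and 5511 and 5328 TPM in the sh-ZNF217-labelled libraries and made up most of the list, while the granule protease genes PRTN3 and ELANE fell (log2 fold changes -1.39 and -0.79). The summed level was 4454 and 4493 TPM in NC and 6844 and 6759 TPM in the sh-ZNF217-labelled libraries, and the part of these markers in the results below was not tested. For other blood cells and for tissue cells, the table held 3 of 8 T and NK markers (117 and 94.2 TPM summed in NC, 139 and 142 TPM in the sh-ZNF217-labelled libraries, with CD2 higher at 1.20 on the log2 scale; CD3D, CD3E, CD3G, CD8A and KLRD1 were not listed), 3 of 5 B markers (4.45 to 10.7 TPM), 1 of 7 erythroid and megakaryocyte markers (1.07 to 2.93 TPM) and 1 of 9 epithelial and fibroblast markers (0.777 to 1.40 TPM). In bulk RNA, fewer cells of a type and less RNA per cell cannot be told apart.

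NDUF transcripts were lower, by modest amounts, in the sh-ZNF217-labelled libraries. At a limma adjusted p below 0.05, 14 of the 47 genes (29.8%) were lower, where 7.11% of the 14582 tested genes were, and 0 were higher, where 9.77% of all tested genes were. The 14 genes fell by between 15.0% and 34.0% of the NC mean. In each of them both sh-ZNF217-labelled libraries lay below both NC libraries, which their selection by adjusted p in these same libraries favours. Under the stricter rule, which also asks for a log2 fold change beyond 0.5 in size, only NDUFA7 and NDUFS7 were called lower (4.26% of the members), a share close to the 2.46% over all genes, and 0 were called higher, against 6.26%. At an unadjusted p below 0.05, 22 were lower (15.5% of all genes) and 0 higher (18.9% of all genes).

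Of the 33 genes without a call, 23 had a negative log2 fold change and 15 had both sh-ZNF217-labelled libraries below both NC libraries. Counted over all members, those called included, 37 of 47 members (78.7%) had a negative log2 fold change, against 47.5% of all tested genes, and the median was -0.18, against 0.02 over all tested genes. The groups did not overlap, with the sh-ZNF217-labelled libraries lower, for 29 members (61.7%, against 28.6% of all genes), did not overlap in the other direction for 4 (8.51%, against 33.5%), and overlapped for 14. Summed over the members, the level was 7780 and 7269 TPM in NC and 6347 and 6275 TPM in the sh-ZNF217-labelled libraries, 16.1% lower on average, and as a share of each library it was 0.779% and 0.727% against 0.635% and 0.628%. A test of this sum could not go below an exact permutation p of 0.333 with 2 libraries a group. The NC libraries themselves differed: the median difference over members was -0.09 on the log2 scale for NC replicate 2 minus NC replicate 1, with 32 members negative, and -0.01 between the sh-ZNF217-labelled libraries. Across the groups, the 4 library pairs gave medians from -0.27 to -0.13.

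**Figure D1:**
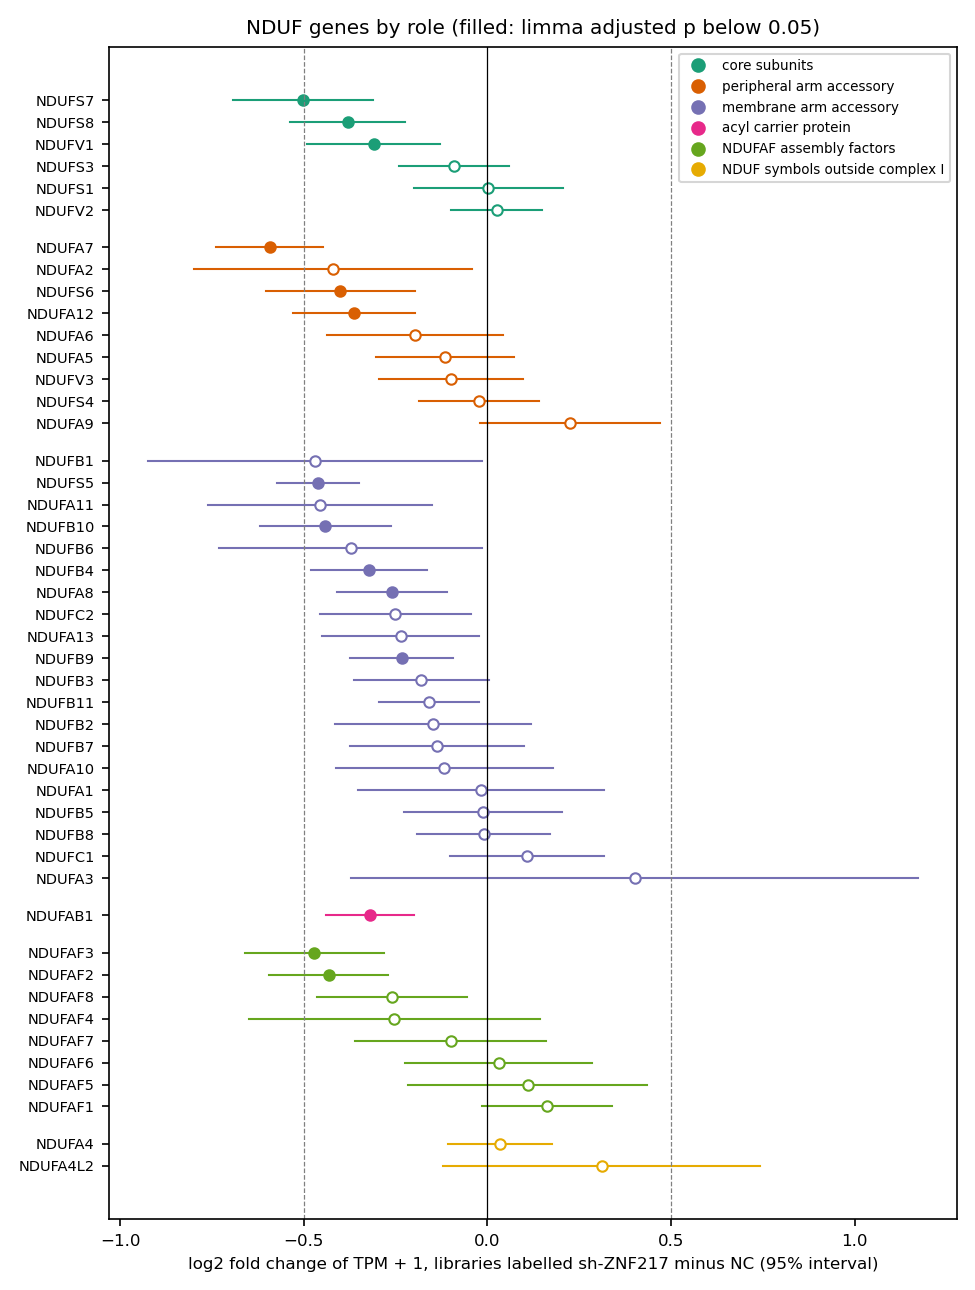
Log2 fold change of TPM + 1 (sh-ZNF217-labelled libraries minus NC, x axis) with its 95% interval for 46 of the 47 NDUF genes, ordered by role, and with filled points at a limma adjusted p below 0.05. All 14 filled points lie left of 0, and the dashed lines mark the fold minimum of 0.5, passed on the left by NDUFA7 and NDUFS7.

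Among the 7 core subunits, 3 fell (over all tested genes, 7.11% were lower) and 4 did not pass the test. The 3 that fell serve at the ends of the electron path, a trait not particular to them, since NDUFV2 at the NADH end did not pass. NDUFV1, the flavoprotein subunit that binds NADH and holds the flavin, is encoded on chromosome 11 (67605653 to 67612554, plus strand, hg38). It stood at 247.9 and 221.8 TPM in NC and at 183.2 and 194.9 TPM in the sh-ZNF217-labelled libraries (means 234.9 ± 18.5 and 189.0 ± 8.24, SD, n = 2 each). The groups did not overlap, and the log2 fold change was -0.31 (SE 0.07, adjusted p = 0.0419 in limma). NDUFS7 and NDUFS8 carry the last iron-sulfur clusters before ubiquinone. NDUFS7 (chromosome 19, 1383527 to 1395589, plus strand) was at 94.0 and 89.1 TPM in NC and at 67.9 and 61.0 TPM in the sh-ZNF217-labelled libraries. Both of the latter were below both NC values, with a log2 fold change of -0.50 (SE 0.08, adjusted p = 0.0147 in limma). NDUFS8 (chromosome 11, 68030617 to 68036644, plus strand) went from 168.9 and 166.6 TPM to 123.1 and 134.5 TPM. Here too the groups were apart, with a log2 fold change of -0.38 (SE 0.06, adjusted p = 0.0179 in limma).

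Further core subunits showed smaller differences. NDUFS3, which lies at the base of the peripheral arm, was at 170.9 and 183.6 TPM in NC and at 163.2 and 169.5 TPM in the sh-ZNF217-labelled libraries (-0.09, adjusted p = 0.345 in limma). It was lower in each sh-ZNF217-labelled library but did not pass. NDUFS1, the largest subunit and the holder of several iron-sulfur clusters, was at 37.0 and 39.9 TPM against 39.9 and 37.1 TPM, with complete overlap of the groups. NDUFV2, the partner of NDUFV1 at the NADH site, was at 190.3 and 191.5 TPM against 196.6 and 191.9 TPM, slightly higher in both sh-ZNF217-labelled libraries (slightly lower, at -0.0085, with median-of-ratios scaling) but with a 95% interval of the log2 fold change from -0.10 to 0.15. The partners of the NADH site, NDUFV1 and NDUFV2, thus stood at -0.31 and 0.02. The difference between them was not tested.

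Of the 9 accessory subunits of the peripheral arm, 3 fell (7.11% of all tested genes), and 8 had a negative log2 fold change (47.5% of all tested genes), with a median of -0.20. NDUFA7 showed the lowest log2 fold change of all members. It is encoded on chromosome 19 (8308768 to 8321375, minus strand) and stood at 109.2 and 105.3 TPM in NC and at 70.1 and 71.4 TPM in the sh-ZNF217-labelled libraries (means 107.2 ± 2.75 and 70.7 ± 0.951, SD, n = 2 each). The difference of 34.0% was far larger than the spread within either group, with a log2 fold change of -0.59 (SE 0.06, 95% interval -0.74 to -0.45, limma adjusted p = 0.0054). NDUFA7 shares exons with RPS28, a ribosomal protein gene on the other strand, and with ENSG00000167774 on its own strand. Whether the counting used strand is not given in the sources used here, so its level is uncertain to that extent. RPS28 was itself lower, at 426.0 and 394.7 TPM against 306.8 and 341.2 TPM (log2 fold change -0.34, limma adjusted p = 0.0322), and its part in the NDUFA7 value was not tested.

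NDUFS6 is a zinc-binding accessory subunit that is added late to the peripheral arm. It was at 243.3 and 209.1 TPM in NC and at 168.8 and 172.6 TPM in the sh-ZNF217-labelled libraries, with no overlap (log2 fold change -0.40, SE 0.08, limma adjusted p = 0.0295). NDUFA12, which takes the place that the assembly factor NDUFAF2 holds during assembly, was at 178.2 and 166.9 TPM against 139.2 and 128.7 TPM, again with no overlap (-0.36, SE 0.07, adjusted p = 0.0229 in limma). The other 6 did not pass. NDUFA2, a small subunit with a thioredoxin-like fold, was at 137.5 and 98.5 TPM in NC, a wide spread, and at 86.5 and 87.1 TPM in the sh-ZNF217-labelled libraries (-0.42, SE 0.15, adjusted p = 0.118 in limma). The log2 fold changes of NDUFA6, NDUFA5, NDUFV3 and NDUFS4 ran from -0.20 to -0.02. NDUFA9, an accessory subunit that binds NADPH, was the exception in sign, at 25.2 and 27.0 TPM against 32.8 and 28.7 TPM (log2 fold change 0.23, 95% interval -0.02 to 0.47, limma adjusted p = 0.171).

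The membrane arm has 20 accessory subunits in this list, of which 5 fell (7.11% of all tested genes) and 18 had a negative log2 fold change (47.5% of all tested genes), with a median of -0.21. NDUFS5, NDUFB10 and NDUFA8 fell, and all carry paired cysteine motifs, as does NDUFB7, which did not pass (-0.14, adjusted p = 0.365 in limma). NDUFS5 (chromosome 1, 39026318 to 39034636, plus strand) was among the most abundant members, at 864.3 and 884.7 TPM in NC and 643.7 and 626.0 TPM in the sh-ZNF217-labelled libraries (means 874.5 ± 14.4 and 634.8 ± 12.5, SD, n = 2 each). Replicates lay close together and the groups far apart, with a log2 fold change of -0.46 (SE 0.04, 95% interval -0.57 to -0.35, limma adjusted p = 0.00534). NDUFB10 was at 186.6 and 205.0 TPM against 138.2 and 149.7 TPM (-0.44, SE 0.07, adjusted p = 0.0171 in limma). NDUFA8 was at 99.7 and 98.6 TPM against 85.1 and 80.3 TPM (-0.26, SE 0.06, adjusted p = 0.0414 in limma).

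The other 2 that fell in the membrane arm were NDUFB9 and NDUFB4. NDUFB9, a subunit that binds the acyl carrier protein, was the most abundant member of all, at 976.0 and 919.3 TPM in NC and 832.0 and 779.5 TPM in the sh-ZNF217-labelled libraries, with a log2 fold change of -0.23 (SE 0.06, adjusted p = 0.0446 in limma). NDUFB4 was at 470.1 and 423.5 TPM against 357.8 and 355.4 TPM (-0.32, SE 0.06, adjusted p = 0.0273 in limma). GENCODE lists 12 pseudogenes of NDUFB4, so its reads may have been split between copies. Neither gene's groups overlapped.

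Several membrane arm genes had differences of a like size but wider spread and did not pass. NDUFB1 was at 213.0 and 162.9 TPM in NC and 155.5 and 115.7 TPM in the sh-ZNF217-labelled libraries (-0.47, SE 0.18, adjusted p = 0.135 in limma). NDUFA11, a membrane subunit on the side where complex III docks in supercomplexes, was at 330.5 and 257.9 TPM against 203.6 and 222.0 TPM (-0.46, SE 0.12, adjusted p = 0.0569 in limma). It passed with median-of-ratios scaling (0.0488), with protein-coding genes alone (0.04) and without NC replicate 2 (0.0092), and its log2 fold change ran from -0.63 to -0.28 with a library left out. In NDUFB1 and NDUFA11, all sh-ZNF217-labelled libraries were below NC, and NC replicate 1 was well above NC replicate 2. NDUFB6, NDUFC2, NDUFA13, NDUFB3, NDUFB11, NDUFB2, NDUFB7, NDUFA10, NDUFA1, NDUFB5 and NDUFB8 had log2 fold changes from -0.37 to -0.01, and NDUFC1 one of 0.11. NDUFA3, with the highest log2 fold change of all members, owed it to a single library: it was at 9.39 and 9.50 TPM in NC and at 8.84 and 18.3 TPM in the sh-ZNF217-labelled libraries (log2 fold change 0.40, SE 0.31, limma adjusted p = 0.417). Without sh-ZNF217 replicate 2 its log2 fold change was -0.086.

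NDUFAB1, the mitochondrial acyl carrier protein, is bound at both arms of complex I and also works in fatty acid and lipoate synthesis. It was at 381.9 and 393.9 TPM in NC and at 314.1 and 307.6 TPM in the sh-ZNF217-labelled libraries. The groups did not overlap, and the log2 fold change was -0.32 (SE 0.05, adjusted p = 0.0142 in limma).

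**Figure D2:**
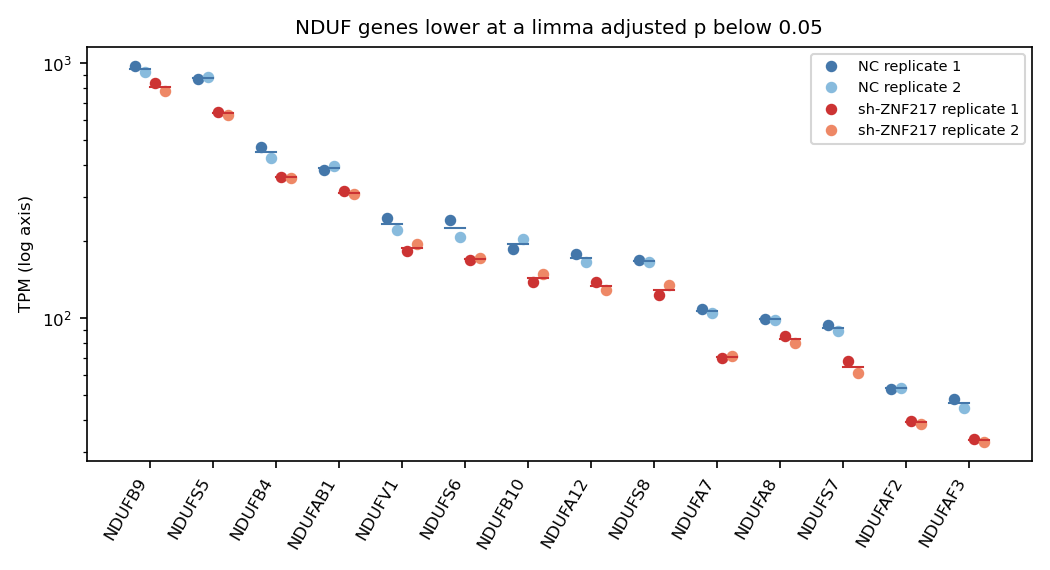
TPM (log axis) in each of the 4 libraries for the 14 NDUF genes lower at a limma adjusted p below 0.05, ordered by level, with a short line at each group's mean. In every gene both sh-ZNF217-labelled libraries lie below both NC libraries, from NDUFB9 and NDUFS5 at the highest levels down to NDUFAF3 at 44.7 and 48.3 TPM in NC and 33.7 and 32.8 TPM in the sh-ZNF217-labelled libraries. The genes were selected on these same libraries, which favours such a separation.

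Of the 8 NDUFAF assembly factors, 2 fell (7.11% of all tested genes), and the median log2 fold change was -0.18. NDUFAF2, a paralogue of NDUFA12 that acts late in assembly, was at 53.0 and 53.2 TPM in NC and at 39.5 and 38.7 TPM in the sh-ZNF217-labelled libraries. The spread within groups was small beside the difference, with a log2 fold change of -0.43 (SE 0.06, adjusted p = 0.0143 in limma). NDUFAF3, which acts early on the ubiquinone module together with NDUFAF4, was at 48.3 and 44.7 TPM against 33.7 and 32.8 TPM (-0.47, SE 0.08, adjusted p = 0.0167 in limma). NDUFAF4 itself was at 32.7 and 30.01 TPM against 22.2 and 30.7 TPM, with overlap and no call (-0.25, adjusted p = 0.318 in limma, and -0.48 to -0.026 with a library left out). NDUFAF8 and NDUFAF5 form a pair in which NDUFAF5 hydroxylates NDUFS7 and NDUFAF8 stabilises it. NDUFAF8 was at 84.9 and 79.8 TPM against 64.5 and 72.9 TPM (-0.26, adjusted p = 0.0849 in limma), and NDUFAF5, among the lowest members, at 10.5 and 9.02 TPM against 10.3 and 10.9 TPM (0.11, adjusted p = 0.603 in limma). NDUFAF7, a methyltransferase, and NDUFAF6 had log2 fold changes of -0.10 and 0.03. NDUFAF1, a part of the complex that builds the membrane arm, was at 39.2 and 38.7 TPM against 44.9 and 42.5 TPM, higher in both sh-ZNF217-labelled libraries but without a call (0.16, 95% interval -0.02 to 0.34, adjusted p = 0.173 in limma).

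The 2 NDUF genes outside complex I were not lower. NDUFA4, now counted as a subunit of cytochrome c oxidase, was at 181.4 and 169.9 TPM in NC and at 181.4 and 178.1 TPM in the sh-ZNF217-labelled libraries (log2 fold change 0.03, limma adjusted p = 0.715). Its relative NDUFA4L2, known as a gene induced by hypoxia, was the lowest of the members, at 5.32 and 4.33 TPM against 5.76 and 6.67 TPM (0.31, SE 0.17, adjusted p = 0.266 in limma).

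Many of these calls were lost when a library was left out, which leaves a single library in its group. Whether the losses reflect the library or the smaller sample was not tested. NDUFA7 and NDUFS5 stayed at an adjusted p below 0.05 whichever library was left out (highest 0.0441 and 0.047), and NDUFS7 did except without sh-ZNF217 replicate 2 (0.0637). Without NC replicate 1, 6 of the 14 calls held and the other 8 had adjusted p-values of 0.0504 to 0.131. Without NC replicate 2, 13 held and NDUFA8 did not (0.106). Without sh-ZNF217 replicate 1, 3 held (lost calls 0.064 to 0.156), and without sh-ZNF217 replicate 2, 2 held (lost calls 0.0501 to 0.175). All 14 log2 fold changes stayed negative in each case, at -0.62 to -0.19. Over all genes the share called lower also shrank, to 3.19%, 4.11%, 1.14% and 1.07% in that order. With limma's moderation run without its trend and robust options, NDUFA7 alone stayed, where 1.12% of all genes were lower.

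Some mitochondrially encoded core subunits were higher. Of the 7 MT-ND genes, which form the membrane arm core, 3 were higher at an adjusted p below 0.05 (9.77% of all genes) and 0 lower, with a median log2 fold change of 0.20, and their summed level was 14.9% higher. MT-ND5, a proton-pumping subunit at the tip of the arm, was at 1420 and 1637 TPM in NC and at 2068 and 2171 TPM in the sh-ZNF217-labelled libraries (log2 fold change 0.47, SE 0.08, limma adjusted p = 0.0161). MT-ND6, the only one encoded on the other strand of the mitochondrial genome, was at 546 and 501 TPM against 609 and 649 TPM (0.27, adjusted p = 0.0436 in limma). MT-ND4L was at 8348 and 9027 TPM against 9994 and 9894 TPM (0.20, adjusted p = 0.0477 in limma). For each of these genes the groups did not overlap, which their selection by adjusted p in these same libraries favours. Over all tested genes, 33.5% were higher without overlap. MT-ND4, MT-ND1 and MT-ND2 had log2 fold changes of 0.25, 0.19 and 0.15 without a call, and MT-ND3 one of -0.01. The calls of MT-ND5 and MT-ND6 were lost when either sh-ZNF217-labelled library was left out (0.0742 and 0.087 for MT-ND5, 0.1 and 0.169 for MT-ND6), that of MT-ND6 also without NC replicate 2 (0.112), and that of MT-ND4L when any library but NC replicate 2 was left out (0.0817 to 0.192). With median-of-ratios scaling MT-ND6 (0.0599) and MT-ND4L (0.0716) also missed the threshold while their log2 fold changes stayed positive, at 0.23 and 0.16. With limma without trend and robust options all 3 calls were lost (0.0869 for MT-ND5, 0.157 for MT-ND6, 0.215 for MT-ND4L).

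TPM values of a library sum to a fixed total, so a rise of abundant transcripts lowers all others. Transcripts encoded in mitochondria took 9.98% and 10.8% of all TPM in NC and 12.5% and 12.7% in the sh-ZNF217-labelled libraries. With these genes taken out and the rest scaled again, 11 of the 14 members were still lower, where 5.45% of all genes were, and 33 of 47 were negative. NDUFV1 (0.0529), NDUFA8 (0.0597) and NDUFB9 (0.0575) then missed the adjusted threshold.

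**Figure D3:**
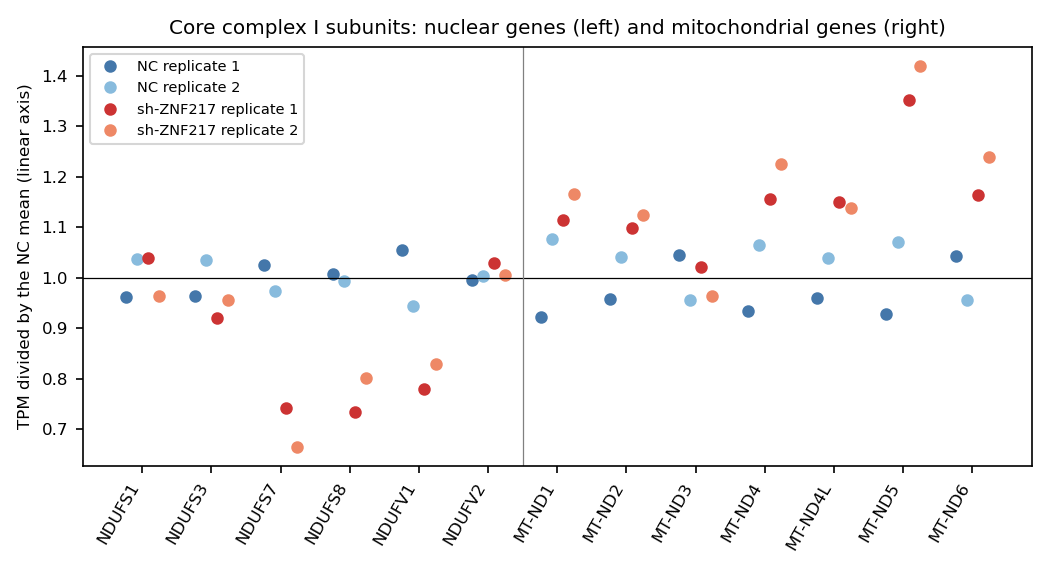
TPM of each library divided by the NC mean of the gene (linear axis) for 6 of the 7 nuclear core subunits on the left and the 7 mitochondrially encoded core subunits on the right. The red points of NDUFS7, NDUFS8 and NDUFV1 lie below all blue points, those of NDUFS3 do so narrowly, and those of NDUFS1 and NDUFV2 lie near 1. Those of 6 MT-ND genes lie above all blue points of the same gene, with MT-ND3 as the exception. Over all tested genes, the groups did not overlap for 33.5% with the sh-ZNF217-labelled libraries higher and for 28.6% with them lower.

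Other nuclear gene lists of the respiratory chain had negative medians, beside -0.18 for the NDUF genes, and over all tested genes 7.11% were lower and 9.77% higher. Of 14 tested complex I assembly factors without an NDUF symbol (among them ACAD9, ECSIT and TIMMDC1), 0 passed the adjusted limma test in either direction. At an unadjusted p below 0.05 in limma, 3 were lower and 1 higher, where 15.5% and 18.9% of all tested genes were. The median log2 fold change of these 14 was -0.08. In complex II (succinate dehydrogenase), 1 of 8 genes was lower (median -0.14). In complex III, 3 of 15 were lower and 1 higher (median -0.16), and in complex IV, 5 of 24 were lower and 0 higher (median -0.16). In complex V (ATP synthase), 5 of 20 were lower and 0 higher (median -0.19). No test of the difference between these lists was made.

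The genes of these lists past the fold minimum as well were few. SDHAF1, an assembly factor of complex II, was at 24.9 and 20.8 TPM in NC and 12.7 and 14.2 TPM in the sh-ZNF217-labelled libraries (log2 fold change -0.72, limma adjusted p = 0.0201, and 0.064 to 0.0894 without NC replicate 1 or without either sh-ZNF217-labelled library). The ATP synthase subunits ATP5ME and ATP5MC2 had log2 fold changes of -0.57 and -0.55. ATP5MC2 was at 425.5 and 428.4 TPM against 289.3 and 292.9 TPM (limma adjusted p = 0.00387), and ATP5ME at 612.3 and 522.1 TPM against 426.6 and 338.8 TPM (limma adjusted p = 0.0381, and 0.0525 to 0.159 with any library left out).

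**Figure D4:**
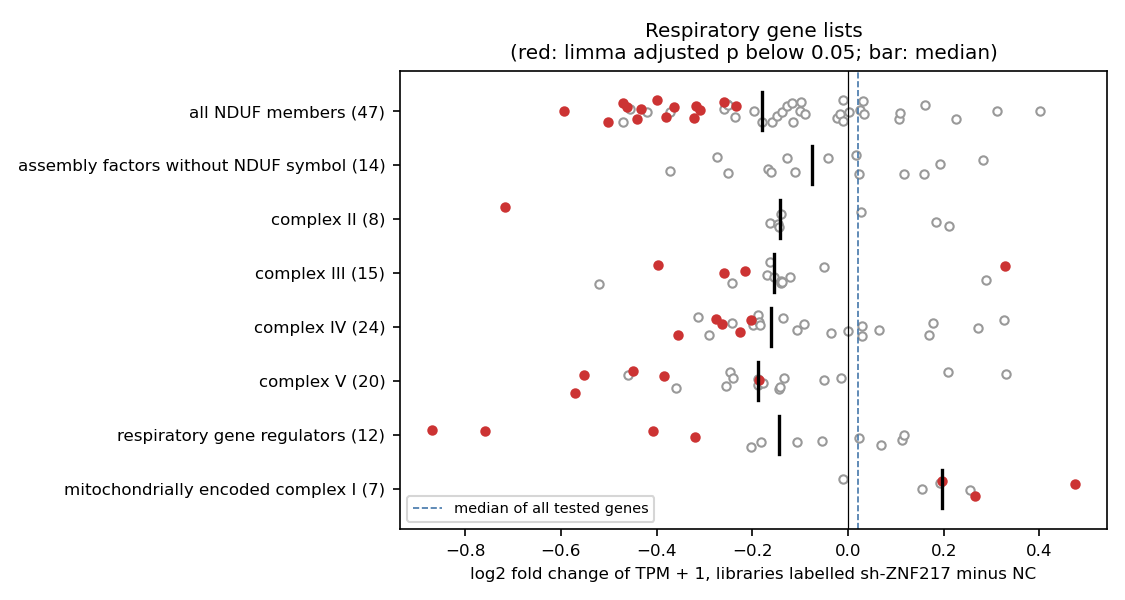
Log2 fold change of TPM + 1 (sh-ZNF217-labelled libraries minus NC) of each tested gene in 8 lists, with the number tested in brackets, red points at a limma adjusted p below 0.05, a black bar at the list's median and a dashed line at the median of all tested genes (0.02). The medians of the nuclear lists lie between -0.19 and -0.08, and that of the mitochondrially encoded list at 0.20.

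Of 12 tested regulators of respiratory genes, 4 were lower (7.11% of all tested genes) and 0 higher (9.77%), with a median of -0.14. MYC, which drives growth and mitochondrial gene programmes, was at 158.1 and 150.4 TPM in NC and at 79.98 and 88.2 TPM in the sh-ZNF217-labelled libraries (log2 fold change -0.87, SE 0.07, limma adjusted p = 0.00339). GABPB1, the partner subunit of the ETS factor GABPA that binds promoters of respiratory genes, was at 34.7 and 28.4 TPM against 18.2 and 18.1 TPM (-0.76, SE 0.12, adjusted p = 0.0148 in limma). Its call was lost without either sh-ZNF217-labelled library (0.0734 and 0.0704). TFB1M and TFB2M, which act on mitochondrial ribosomal RNA and on mitochondrial transcription, had log2 fold changes of -0.41 and -0.32 (adjusted p = 0.0271 and 0.0387 in limma). NRF1, the factor named for nuclear control of respiration, had one of 0.02.

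Promoter letters were read to show where motifs of these regulators lie. RefSeq windows of 300 bases (250 before and 50 after the start, build GRCh38.p14) were matched by symbol for 39 of the 47 members, 12 of them among the 14 that fell. On either strand, the palindrome core of NRF1 sites (GCATGCG) was found in 8 of 39 members (20.5%), against 4.74% of the 27305 genes with a window and 8.08% of tested protein-coding genes. It lay in 4 of the 12 members that fell and in 4 of the other 27. The 30 bases around it are shown for the 4 that fell and for NDUFA5 and NDUFAF5, which did not pass, in the direction of the gene and with the match in capitals. They come from chr3:120596167-120596196 (plus strand), chr5:1801351-1801380 (plus), chr9:122159764-122159793 (minus), chr19:1383822-1383851 (plus), chr7:123557957-123557986 (minus) and chr20:13785014-13785043 (plus), and the match begins at -158, -45, -3, -74, -157 and -3 bases from the start, in that order.
NDUFB4: agagcacttcgCGCATGCGcatatcaccga
NDUFS6: cagaagccgtgCGCATGCGttagcgctaag
NDUFA8: gttgccggatgCGCATGCGcaggcgccgtg
NDUFS7: gttccggtttcCGCATGCGctccgagccgc
NDUFA5: tatgcccatcgCGCATGCGtcaatttttct
NDUFAF5: agccgcgctggCGCATGCGcacaaaaagcg

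In all 6 the core is read on both strands at a shift of 1 base, which gives the run of 8 capitals. The log2 fold changes were -0.32, -0.40, -0.26 and -0.50 for NDUFB4, NDUFS6, NDUFA8 and NDUFS7, and -0.11 and 0.11 for NDUFA5 and NDUFAF5. The remaining holders of the core, NDUFAF4 and NDUFA6, also did not pass and were at -0.25 and -0.20. NDUFAF4 was thus about as low as NDUFA8. The YY1 motif (AGATGGC) was in 23.1% of members (6.63% of all genes with a window, 10.1% of tested protein-coding genes), the GC box (GGGCGG) in 64.1% (48.3% and 77.2%), the E-box that MYC can bind (CACGTG) in 10.3% (8.77% and 13.2%), and the CCAAT box (CCAAT) in 30.8% (39.7% and 43.6%).

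The ETS motif that GABP binds (CCGGAAG) was in 7 of 39 members (17.9%, against 12.2% of all genes with a window and 24.2% of tested protein-coding genes). It lay in 0 of the 12 that fell and in 7 of the other 27, and the difference was not tested. Among those 7, NDUFA13 and NDUFAF8 had log2 fold changes of -0.24 and -0.26 with no overlap of the groups, as large as those of NDUFB9 and NDUFA8, which fell. As examples, the 80 bases before the start are given for NDUFB10 and NDUFAB1, which fell, and for NDUFA1 and NDUFB7, which hold the motif and did not pass, all from windows without an annotated exon. They lie at chr16:1959458-1959537 (plus strand), chr16:23596317-23596396 (minus), chrX:119871752-119871831 (plus) and chr19:14572067-14572146 (minus). Capitals mark the ETS motif, written CTTCCGG on the opposite strand, and the GC box, written CCGCCC there.
NDUFB10: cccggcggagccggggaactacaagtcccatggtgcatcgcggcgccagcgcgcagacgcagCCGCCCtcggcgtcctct
NDUFAB1: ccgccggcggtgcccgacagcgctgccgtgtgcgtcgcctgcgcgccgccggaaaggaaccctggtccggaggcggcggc
NDUFA1: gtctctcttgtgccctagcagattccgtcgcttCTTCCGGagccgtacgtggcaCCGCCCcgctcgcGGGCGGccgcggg
NDUFB7: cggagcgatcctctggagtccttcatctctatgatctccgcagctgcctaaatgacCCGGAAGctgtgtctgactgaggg

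A match describes letters and not binding, and a window without one says only that these letters are not in it. NDUFA1, with the ETS motif at -47, was at 195.5 and 147.6 TPM in NC and 175.1 and 160.7 TPM in the sh-ZNF217-labelled libraries, with overlap. NDUFB7, with the motif at -24, was at 118.5 and 102.7 TPM against 94.5 and 106.3 TPM, also with overlap.

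The members that fell had short transcripts. Their canonical transcripts ran from 495 to 1560 nucleotides. Of 30 members below 1000 nucleotides, 13 fell (median log2 fold change -0.26), where 9.91% of all genes of that length were lower (median -0.05). Of 17 longer members 1 fell, NDUFV1 (median -0.10, against 6.92% and 0.03 over all genes of that length). By GC content, 7 of 14 members at or above 55% fell (median -0.35, against 10.9% and -0.07 over all genes of that class) and 7 of 33 below it did (median -0.12, against 5.998% and 0.06). With the trend of each library along length and GC content removed, 12 of the 14 members stayed lower, and NDUFS7 (-0.31, limma adjusted p = 0.0661) and NDUFB9 (-0.16, limma adjusted p = 0.0611) did not. Of all genes, 9.64% were lower in that fit. No member was then past the fold minimum, with NDUFA7 at -0.50 just short of it.

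**Figure D5:**
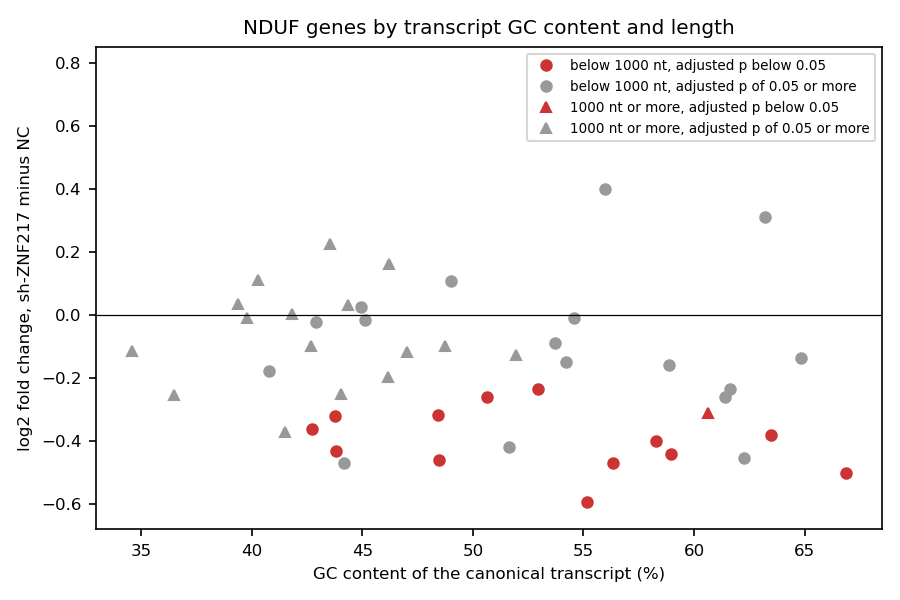
Log2 fold change (sh-ZNF217-labelled libraries minus NC) of the 47 NDUF genes against the GC content of the canonical transcript in percent, with circles for transcripts below 1000 nucleotides, triangles for longer ones and red for a limma adjusted p below 0.05. Among the triangles 1 of 17 is red (NDUFV1), and among the circles 13 of 30 are.

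Shared sequence with other genes touched many members. Exons of 26 of the 47 overlap another annotated gene, 15 of them on the same strand, and 6 of these 26 fell, as did 8 of the 21 without overlap. Over all tested genes 7.11% were lower. That share was not split by exon overlap, and the difference between the members was not tested. GENCODE lists 63 NDUF pseudogenes, of which 6 were in the table, and 21 members have at least 1, up to 12 for NDUFB4 and NDUFA5. Levels also differed widely between members, with means over the 4 libraries from 5.52 TPM for NDUFA4L2 to 876.7 TPM for NDUFB9, a median of 98.2 TPM and 23 members above 100 TPM. Restricted to genes with at least 5 TPM in every library, 14 of 46 members were lower, where 12.3% of all such genes were.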

How the data were processed

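Reads were cleaned by the authors and mapped to hg38 with HISAT2 2.0.5 (both per the submitters' processing notes), and their methods name FPM as the measure and DESeq2 as the test. The deposited table holds TPM, as its column sums and length scaling show, and no counts. Not given in the sources used here were the quantifier, the annotation, the strand setting and the depth, so the precision due to depth is unknown. Column names were tied to samples through NC or ZNF plus the number, and 0 further sample columns were present. The column names also carry ZNFS1 and D4, which are not explained.

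Identifiers were named with GENCODE 44 (16143 of 17656). Genes that reached 1 TPM in at least 2 libraries (14582, leaving out 3074) were compared as log2(TPM + 1) with limma 3.58.1 in R 4.3.3 (group alone, trended and robust moderation), with Benjamini-Hochberg adjustment over all of them. This scale understates changes of low genes, and percent changes are ratios of mean TPM. The procedure was tested on simulated data. The labels do not say that libraries came from separate cultures, so p-values reflect only how far these samples spread, and that spread may be technical. Replicate numbers were checked for pairing by the correlation of deviations from the group means of same-numbered libraries (-0.01 over 14582 genes), and do not pair samples.

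The members and lists were chosen with earlier results of these data known, and the classes of length and GC content after these values were seen. The values of 1 core subunit are not reported here, though it stays in the fit and the counts. Named genes were all members past either rule, the other core subunits, NDUFAF factors, the 5 lowest and 5 highest log2 fold changes, NDUF symbols outside complex I, MT-ND genes, ZNF217, and genes of the compared respiratory lists past both thresholds. Other genes, namely LYZ, PRTN3, ELANE, CD2, RPS28, TFB1M, TFB2M, NRF1, GABPA, NDUFA2, NDUFB6 and further members, were named after their values were seen. Of the symbols listed, ATP5SL is an older name of DMAC2, SCO2 was not analysed here, and 1 regulator (of 13) did not pass the filter. Plots were made in Python 3.11.15 using matplotlib 3.10.9.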

Additional observations from a re-analysis of the deposited data

How the results depend on the processing

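The count of members lower at an adjusted p below 0.05 (14) was 15 with median-of-ratios scaling or protein-coding genes alone, 14 with a pseudocount of 0.1 or at least 5 TPM in every library, 13 with no filter, 12 with the length and GC correction, 11 without mitochondrially encoded genes and 1 with limma without trend and robust options, and 2 to 17 with a library left out. The count past the fold minimum (2) was 0 with the length and GC correction, 1 without mitochondrially encoded genes, with protein-coding genes alone and with limma without trend and robust options, 3 with median-of-ratios scaling, and 1 to 7 with a library left out (7 without NC replicate 2). The count higher was 0 under every alternative run. At an adjusted p below 0.05, the share of all genes lower was 8.92% with median-of-ratios scaling and 11.4% with protein-coding genes alone. It was 6.91% with a pseudocount of 0.1, 12.3% at 5 TPM in every library and 5.06% with no filter. The length and GC correction gave 9.64%, leaving out mitochondrially encoded genes 5.45%, limma without trend and robust options 1.12% and a replicate block 4.77%. With the replicate number as a block, 13 members were lower, 12 of them shared with the 14, NDUFV1 and NDUFA8 were lost, NDUFB1 was added, MT-ND6 (adjusted p 0.0727) and MT-ND4L (0.0668) were lost, MT-ND4 was gained (0.0368), and the NDUF median stayed at -0.18. The share of all genes lower and past the fold minimum was 2.54% with the length and GC correction and 1.97% without mitochondrially encoded genes. It was 3.12% with protein-coding genes alone, 3.02% with median-of-ratios scaling and 1.12% with limma without trend and robust options. Without NC replicate 1 or 2 it was 1.64% or 2.17%, and without sh-ZNF217 replicate 1 or 2 it was 0.99% or 0.88%. Leaving out a library leaves a single library in its group. The NDUF median ran from -0.27 to -0.15 with a library left out, and its distance from the median of all genes from -0.29 to -0.17.

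Medians by role moved as follows. Under the length and GC correction they were -0.18 for core subunits, -0.28 for peripheral accessory subunits, -0.12 for complex IV and -0.23 for regulators. Under median-of-ratios scaling they were -0.16 for core subunits, -0.11 for assembly factors without an NDUF symbol, -0.18 for complex II, -0.19 for complex IV and -0.18 for regulators. Without mitochondrially encoded genes they were -0.091, -0.042, -0.11, -0.13 and -0.11 for the same lists in that order, and -0.15 for complex V. With no filter, regulators stood at -0.18. With a library left out the ranges were -0.16 to -0.10 for core subunits, -0.31 to -0.15 for peripheral accessory subunits, -0.26 to -0.048 for NDUFAF factors, -0.12 to -0.016 for other assembly factors, -0.14 to -0.059 for complex II, -0.16 to -0.10 for complex IV, -0.22 to -0.16 for complex V and -0.17 to -0.13 for regulators.

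Signs turned only for genes that had no call. Under the length and GC correction NDUFS1 was at -0.18, NDUFB7 at 0.038, NDUFA1 at 0.0022, NDUFB8 at 0.078, NDUFA4 at -0.031 and NDUFAF5 at -0.0203. Under median-of-ratios scaling NDUFS1 was at -0.031, NDUFAF6 at -0.0014 and NDUFV2 at -0.0085. Without mitochondrially encoded genes NDUFA1 was at 0.018, NDUFB8 at 0.025, NDUFB5 at 0.025 and NDUFS4 at 0.014. With a library left out, the ranges were -0.25 to 0.011 for NDUFA10, -0.051 to 0.055 for NDUFS1, -0.086 to 0.89 for NDUFA3, -0.22 to 0.18 for NDUFA1, -0.1 to 0.0797 for NDUFB8, -0.071 to 0.13 for NDUFAF6, -0.1 to 0.081 for NDUFB5, -0.084 to 0.039 for NDUFS4, -0.013 to 0.081 for NDUFA4 and -0.075 to 0.055 for MT-ND3. The cause of these changes was not tested. Depth is unknown, so counting error could not be separated from the spread between libraries.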
